A study of Mus musculus with 2 samples.

Results

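Some regions occupied by the histone variant H2A.Z stood alone on the chromosome, far from any other, and these lone regions are described here. They were chosen from the looser list of the wild-type library (the list whose header names the threshold 1e-09). A lone region was at least 200 bp wide, lay on an autosome other than 6 and 8, and had at least 50 kb free of any other wild-type region on both sides, narrower regions included. The rule found 2329 lone regions among the 99812 regions of that list, or 2.33%, and among 63358 regions of at least 200 bp on the same 17 autosomes, or 3.68%. The other 61029 regions of at least 200 bp on these autosomes serve for comparison. The span from 50 kb before to 50 kb after a lone region is called its stretch.

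Both libraries were made by chromatin immunoprecipitation and sequencing (ChIP-seq) from embryonic stem cells of the strain V6.5 (129SvJae and C57BL/6, male), with the transgenic lines described as KH2. One library came from cells with wild-type H2A.Z fused to YFP, and the other from cells with H2A.Z.K3R3 fused to YFP, in which the lysines at positions 119, 120 and 123 are arginines. Both transgenes were delivered by lentivirus and driven by a CMV promoter under the doxycycline-inducible rtTA system, and both lines were induced with 1 µg/ml doxycycline and sorted for YFP. Both also carried a short hairpin against the endogenous H2A.Z transcript, and the labels do not say which of the 2 listed hairpins was used for these libraries. The antibody was Abcam Ab290, raised against GFP and also binding YFP, so the tagged protein was the target. With 1 library per group, every value below compares 2 libraries. There is no replicate check and no p-value. Intervals are 95% Wilson intervals. They hold counting error alone, as if regions were independent of each other.

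H2A.Z replaces the core histone H2A in a minority of nucleosomes, and exchange complexes of the SWR1 family place it beside the nucleosome-free start sites of genes and at enhancers. In embryonic stem cells it is known at active promoters and at the bivalent promoters of developmental regulators. Its C-terminal lysines can carry a single ubiquitin, a mark linked with silent or poised chromatin and with Polycomb repressive complexes, and K3R3 cannot carry it at these lysines. In gene-poor parts of a genome, promoters and enhancers are far apart. The rule used here empties the neighbourhood in the looser wild-type list only, and further regions can lie there in the other lists. No gene annotation or genome sequence of the build of the lists (mm9) was used here, so the regions carry no gene names and no sequence is printed.

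Lone regions were mostly narrow. Their median width was 350 bp (quartiles 250 and 650 bp, range 200 to 3700 bp), against 450 bp (quartiles 300 and 800 bp) for the other regions of at least 200 bp. A width of 200 to under 400 bp, the size range of the selected fragments, was found for 1290 lone regions (55.4%, 95% interval 53.4 to 57.4), against 41.8% of the others. Another 593 were 400 to under 800 bp wide and 410 were 800 to under 2000 bp wide. Only 36 lone regions (1.55%) reached 2000 bp, against 2.48% of the other regions. Together the lone regions covered 1234 kb.

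**Figure D1:**
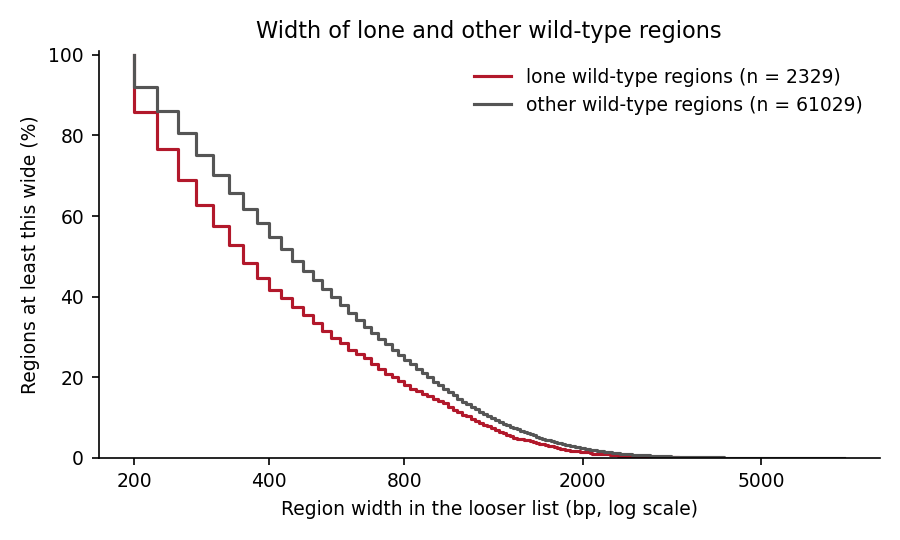
Share of regions (vertical axis, %) at least as wide as the value on the horizontal axis (bp, log scale) for the 2329 lone wild-type regions and the 61029 other wild-type regions of at least 200 bp on the same autosomes. The line of the lone regions runs below that of the others, with medians of 350 and 450 bp.

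Many of the lone regions lay right at the limit in width. Among wild-type regions with 50 kb free on both sides, 331 were exactly 200 bp wide and 216 were 225 bp wide, both just inside the limit. Just outside it, 223 were 175 bp and 211 were 150 bp wide. Exactly 200 bp was thus commoner than the widths on either side. By distance, 44 regions had their nearest neighbour 50 to 51 kb away and 61 had it 49 to 50 kb away. A single K3R3 region lay in the stretch of 50% of the former and 16.4% of the latter, whose stretch holds a wild-type neighbour by definition. The share with a K3R3 region over the site was 82.5% (77.0 to 86.9) at 175 bp and 85.8% (81.6 to 89.1) at 200 bp, with overlapping intervals. Of all 1280 isolated regions under 200 bp, 65.3% (62.7 to 67.9) had a K3R3 region over them.

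The distances from lone regions to their wild-type neighbours have a floor set by the rule. No nearest distance could be under 50 kb, and no length between the neighbours under 100 kb. The nearest other wild-type region was a median of 82.4 kb away (quartiles 62.1 and 131 kb), and up to 1202 kb. Between the wild-type regions on either side, the median length was 269 kb (quartiles 179 and 447 kb) over the 2315 lone regions with a neighbour on both sides. This length reached 500 kb for 486 of them (21.0%) and 1 Mb for 106 (4.58%). Joined where they overlapped, the stretches made up 227 Mb in 2081 blocks, or 10.4% of the 2191 Mb up to the last region of each autosome. Width hardly followed isolation, with a Spearman rho of -0.072 across the 2329 lone regions, which are not independent replicates. The median width was 375 bp with the nearest region 50 to 100 kb away, 350 bp at 100 to 200 kb, 325 bp at 200 to 400 kb and 300 bp beyond.

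K3R3 was found at most lone wild-type sites. Of the 2329 lone regions, 2174 (93.3%, 92.3 to 94.3) overlapped a region of the looser K3R3 list by at least 1 bp. Over all 63358 wild-type regions of at least 200 bp on these autosomes the share was 89.9%, and over those that were not lone it was 89.7% (89.5 to 90.0). Reweighted to the widths of the lone regions, the share of the other regions was 88.4%. The stricter K3R3 list (1e-12) lay over 2142 lone regions (92.0%), and 1 of the 2 K3R3 lists or both lay over 2197 (94.3%, 93.3 to 95.2). The gap to the other regions is smaller by these measures. The other regions were at 91.0% for the stricter list, at 92.4% for either list and at 93.0% with a partner allowed within 1000 bp, where the lone regions stood at 93.5% (92.4 to 94.5).

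Within width classes the lone regions had the higher share in each. At 200 to under 400 bp, 90.7% (89.0 to 92.2) of lone regions and 85.9% (85.4 to 86.3) of the others were shared. The values were 95.3% (93.3 to 96.7) and 90.7% (90.3 to 91.1) at 400 to under 800 bp. From 800 to under 2000 bp they were 98.3% (96.5 to 99.2) and 94.5% (94.1 to 94.8). All 36 lone regions of at least 2000 bp were shared (lower bound 90.4%), against 97.8% (96.9 to 98.4) of 1512 others, a difference that these numbers cannot resolve. In the narrowest class the share went up step by step with distance to the nearest wild-type region, from 85.0% under 1 kb to 88.4% at 25 to 50 kb, 90.6% at 50 to 100 kb and 91.8% at 100 to 200 kb. It was 87.1% (80.6 to 91.7) for the 140 regions at 200 to 400 kb, and 28 of 29 (96.6%, 82.8 to 99.4) at 400 kb and over, so with so few regions no order could be read beyond 200 kb. Without a minimum width the pooled order of lone and other regions turned, with overlapping intervals. The shares were 83.4% (82.1 to 84.6) of 3609 lone regions and 84.1% (83.9 to 84.4) of the others. Of these 3609, 1280 were under 200 bp wide, and 65.3% of those were shared. The pooled shares thus mix widths, and no width class above is turned by them.

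**Figure D2:**
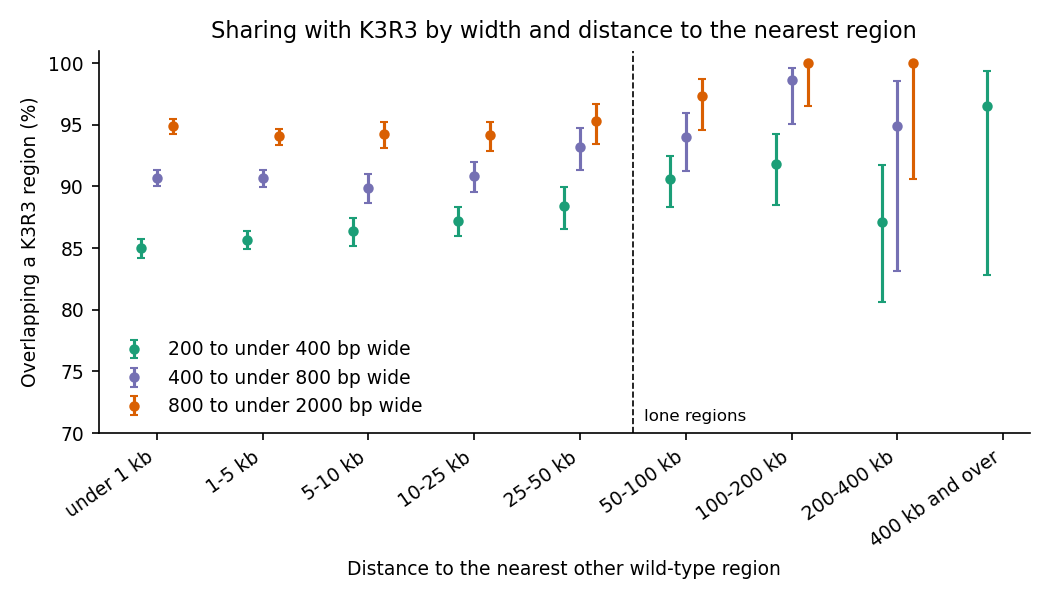
Share of wild-type regions that overlap a K3R3 region (vertical axis, %, starting at 70) by distance to the nearest other wild-type region, in 3 width classes. Points are shares with 95% Wilson intervals, classes with under 20 regions are left out, and regions right of the dashed line are the lone ones. Width separates the classes at each distance up to 50 kb, and lone regions of 200 to under 400 bp lie at 90.6% (50 to 100 kb) and 91.8% (100 to 200 kb) against 85.0% under 1 kb.

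Where both proteins were present, their regions had nearly the same place and size. Of the shared lone regions, 2109 had a single K3R3 partner, and the median distance between the midpoints was 12.5 bp, where coordinates come in steps of 25 bp. The offset was at most 100 bp for 1996 of them (94.6%, 93.6 to 95.5), against 86.9% (86.6 to 87.2) for other regions with a single partner. Overlap is a condition for being compared, so small offsets between narrow regions are partly built in. The median lone region was covered by K3R3 over its whole length (lower quartile 87.5%). A reciprocal overlap of 50% held for 2037 lone regions (87.5%) and for 81.9% of the others.

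The median width ratio at lone sites was even, although K3R3 was wider at more of them than the wild type. The log2 ratio of wild-type to summed K3R3 width had a median of 0.00 (quartiles -0.16 and 0.14) and a mean of 0.04 (SD 0.51 over 2174 regions). K3R3 was wider at 951 sites (43.7%, 41.7 to 45.8), the wild type at 835 (38.4%, 36.4 to 40.5), and 388 had equal widths. Over all shared wild-type regions of at least 200 bp, K3R3 was wider in 50.1% and the wild type in 35.7%. The minimum width of 200 bp holds for the selecting library alone, which works toward wider regions in that library. At 1708 shared lone regions of the K3R3 list, found by the same rule, K3R3 was wider at 921 (53.9%). The wild type was wider at 496 of these (29.0%). The balance thus depends on which library was used to select. The 2 widths were within 25 bp of each other at 999 lone sites (46.0%, 43.9 to 48.0), against 38.9% of other shared regions. By wild-type width, K3R3 was wider at 51.2% of lone sites of 200 to under 400 bp and at 28.3% of those of 800 to under 2000 bp, and for other regions the values were 59.1% and 40.1%. Classes formed by wild-type width work toward such a fall by themselves, so nothing is read from it. At 86 lone sites (3.96%, 3.21 to 4.86) the wild-type region was at least 2 times as wide as in K3R3, and at 32 (1.47%, 1.04 to 2.07) the K3R3 region was at least 2 times as wide. Other shared regions had the opposite order, with 2.85% and 5.26%. K3R3 widths are summed in full, so a K3R3 region that joins several wild-type regions counts as wider at each. Lone regions have no neighbour to be joined with, so contrasts with other regions are partly built in. For wild-type widths of 200 to under 400 bp, the summed K3R3 width reached 1350 bp at lone regions and 10025 bp at others. Across the shared lone sites the widths of both libraries had a Spearman rho of 0.88 over 2174 sites, which are not independent replicates.

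K3R3 also had a single region in many of the stretches. Exactly 1 region of the looser K3R3 list lay in the stretch of 1392 lone regions (59.8%, 57.8 to 61.7), and in 1356 of these it was the region over the site. When only neighbours of at least 200 bp counted against isolation, the share was 42.6% (41.0 to 44.2) of 3658 lone regions, and single K3R3 regions were no longer the majority. For all wild-type regions of at least 200 bp, 2.81% had exactly 1 K3R3 region within 50 kb. That low value follows from their having wild-type neighbours, since the rule for lone regions asks for an empty neighbourhood. There were 2 K3R3 regions in 528 stretches (22.7%) and 3 or more in 303 (13.0%), with 9 as the highest number. No K3R3 region at all lay in 106 stretches (4.55%, 3.78 to 5.48), against 0.226% around all wild-type regions of at least 200 bp. The 0.226% (143 regions, the 106 lone ones included) is low for the same reason as the 2.81%, so no excess is read from this. The share around lone regions depends on width. It was 11.6% without a minimum width of the lone regions and 2.12% for those of at least 400 bp. With only K3R3 regions of at least 200 bp counted, it was 11.3%. A K3R3 region that was itself lone by the same rule overlapped 1249 lone wild-type regions (53.6%, 51.6 to 55.7). The median width of the wild-type site was 400 bp in stretches with 3 or more K3R3 regions, 350 bp with exactly 1 and 250 bp with none. This order is partly built in. The count includes K3R3 regions over the site, and a stretch with none always has an unshared site.

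**Figure D3:**
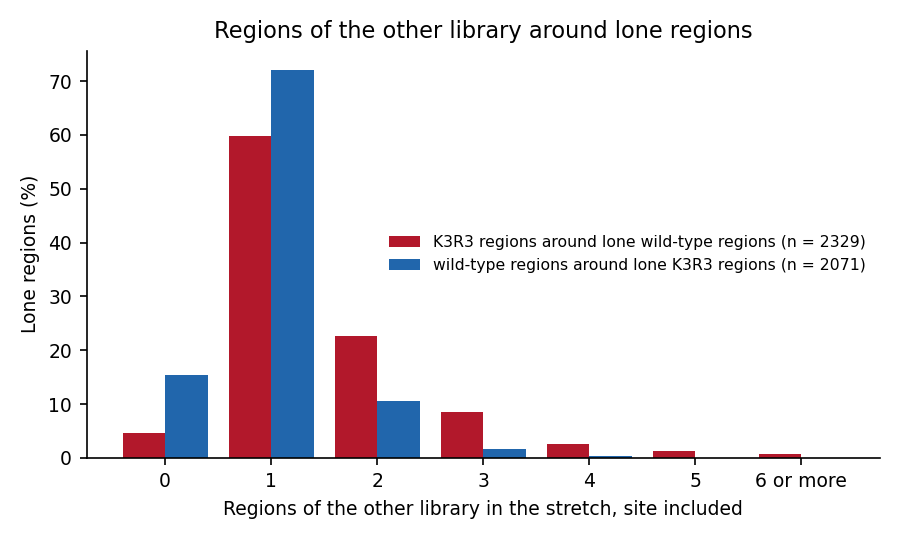
Share of lone regions (vertical axis, %) by the number of regions of the other library in the stretch, the site included (horizontal axis), for 2329 lone wild-type regions and 2071 lone K3R3 regions found by the same rule. A single region is the commonest case in both, with 59.8% and 72.0%, and stretches with none are commoner around lone K3R3 regions (15.4%) than around lone wild-type regions (4.55%).

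The additional K3R3 regions were small and thinly spread. Off the site, 828 lone regions (35.6%) had at least 1 K3R3 region in the stretch, but only 382 (16.4%) had one of at least 200 bp. Counted once where stretches overlap, there were 1241 such K3R3 regions. Of these, 759 (61.2%, 58.4 to 63.8) were under 200 bp wide, against 23.2% of the K3R3 list on these autosomes, and only 19 reached 800 bp. The stricter K3R3 list held 812 of them (65.4%), against 88.2% of all looser K3R3 regions on these autosomes, and the stricter wild-type list had a region over 55 (4.43%). Their density in the flanks was 5.53 per Mb, where the K3R3 list as a whole had 45.6 per Mb. A low density is built in, since the rule empties the flanks of wild-type regions and 80.0% of K3R3 regions of at least 200 bp overlap one. Small widths are partly built in too. Among K3R3 regions of at least 200 bp that were not lone, those without wild type over them had a median of 300 bp, against 475 bp for shared ones. The density was highest within 5 kb of the site, at 8.72 per Mb. It was 6.14 per Mb from 5 to 10 kb, and 4.34 to 5.88 per Mb in each 5 kb step beyond. Of the 203 K3R3 regions counted in the first 5 kb, 89 lay under 1000 bp from the site. Counted for each lone region in turn, 638 of 1287 (49.6%, 46.8 to 52.3) lay to the left of the site and the rest to the right.

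**Figure D4:**
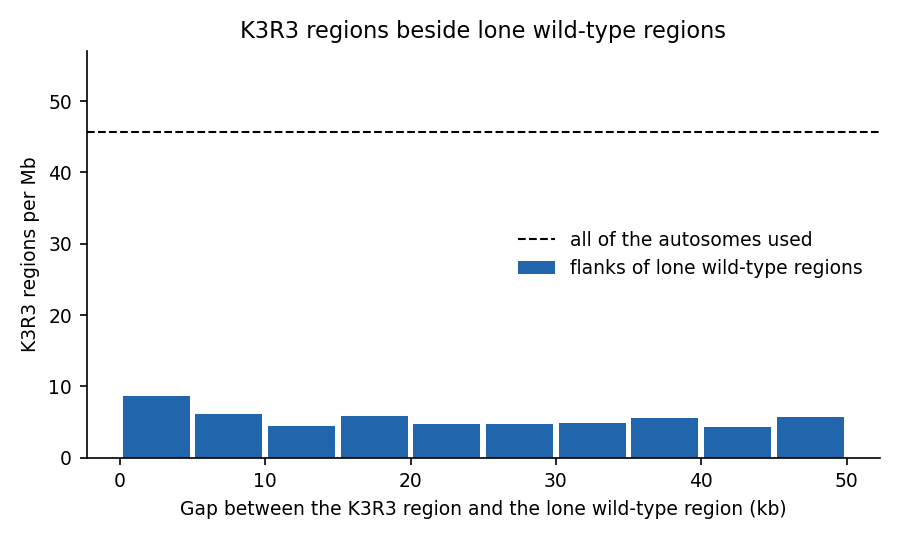
Density of K3R3 regions off the site (vertical axis, regions per Mb) in 5 kb steps of the gap between the K3R3 region and the lone wild-type region (horizontal axis, kb), both sides together. The bars run from 4.34 to 8.72 per Mb, highest in the first 5 kb, and the dashed line marks the 45.6 per Mb of the whole K3R3 list on the same autosomes. The rule empties these flanks of wild-type regions of the looser list, so bars below the line are built in.

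The comparison was also made from the side of K3R3. The same rule applied to the looser K3R3 list, which on these autosomes was 1.21 times as long as that of the wild type, found 2071 lone K3R3 regions (2.70% of those of at least 200 bp) with a median width of 325 bp. A wild-type region lay over 1708 of them (82.5%, 80.8 to 84.0). Over all K3R3 regions of at least 200 bp on these autosomes the share was 80.0%, and other K3R3 regions reweighted to the same widths were at 76.1%. Exactly 1 wild-type region lay in 1492 of the stretches (72.0%, 70.1 to 73.9) and none in 319 (15.4%). Wild-type regions off the site had a density of 1.64 per Mb there, below the 5.53 per Mb of K3R3 around lone wild-type regions. Each library thus had further regions in stretches chosen for being empty in the other, and more of them came from the library with the longer list. With the K3R3 list cut to the length of the wild-type list, widest first, 70.3% of the lone wild-type regions had a single K3R3 region in the stretch, 8.50% had none and 90.0% were shared. Read depth is unknown from region lists, and its part in these numbers was not tested.

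Lone regions without K3R3 over them numbered 155, and most were narrow. Their median width was 250 bp, against 362.5 bp for shared lone regions, and 120 of them (77.4%) were under 400 bp wide. In 106 of the 155 the whole stretch lacked K3R3 regions, in 36 there was a single K3R3 region elsewhere in the stretch, and in 4 a K3R3 region lay within 1000 bp. The stricter K3R3 list, which is not nested in the looser one, had a region over 23 of the 155. In 84 stretches (3.61% of all) neither K3R3 list had a region, and the wild-type regions there had a median width of 250 bp and a highest width of 1025 bp. Of these 84 wild-type regions, 80 were also in the stricter wild-type list. Over all lone regions this held for 2306 (99.0%, 98.5 to 99.3), the same as the 99% over all wild-type regions of at least 200 bp.

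The widest lone region with no K3R3 region in its stretch was 1025 bp wide, on chromosome 5 from 29895501 to 29896525. It was 950 bp wide in the stricter wild-type list, and neither K3R3 list had a region within 50 kb. The second, of 800 bp on chromosome 11 (8368251 to 8369050), had a stricter K3R3 region of 675 bp over it (8368376 to 8369050), so it was not free of K3R3. The other 3 were on chromosome 2 (71205176 to 71205925, 750 bp), chromosome 4 (149745701 to 149746400, 700 bp) and chromosome 7 (135831401 to 135832100, 700 bp), and both K3R3 lists were empty in all these stretches. Their stricter wild-type forms were 725, 700 and 675 bp wide. The widest lone region without a looser K3R3 region over it, picked after its values were seen, was 1100 bp wide on chromosome 1 (153275101 to 153276200). Its stretch held a single K3R3 region, away from the site.

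The 10 widest lone regions were all occupied in K3R3 as well. The widest was 3700 bp on chromosome 5 (3341026 to 3344725), where K3R3 had regions of 2050 and 1050 bp that covered 83.8% of it. Its nearest wild-type neighbours were 142 and 128 kb away, and K3R3 had no other region in the stretch. The next, of 3275 bp on chromosome 12 (14156226 to 14159500), carried K3R3 regions of 2725 and 200 bp. On chromosome 15 a lone region of 3175 bp (64751701 to 64754875), with 534 and 235 kb free on its sides, had the same start and end in K3R3. K3R3 covered 82.4% of the region of 2975 bp on chromosome 9 (85735601 to 85738575) in 3 pieces, the longest of 1700 bp. The region of 2900 bp on chromosome 3 (82930926 to 82933825) was covered to 81.9% in 2 pieces.

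On chromosome 18, lone regions of 2850 bp (21809776 to 21812625) and 2750 bp (45717776 to 45720525) were covered to 90.4% and 89.1%, each by 2 K3R3 regions. Single K3R3 regions of 2875, 2625 and 2450 bp lay over the last 3 of the 10. These were the lone regions on chromosome 5 (4755551 to 4758350, 2800 bp), chromosome 11 (80965051 to 80967625, 2575 bp) and chromosome 3 (53459176 to 53461675, 2500 bp). Several K3R3 regions over a single site were thus seen at 6 of the 10 widest, but at 65 (2.79%, 2.20 to 3.54) of all lone regions and at 2.04% (1.93 to 2.16) of the other wild-type regions of at least 200 bp. A wider site has more room for several K3R3 regions. By the rule a lone site is 1 unbroken wild-type region, so a site split in the wild type is left out. Several wild-type regions over a lone K3R3 region, found by the same rule, were seen at 10 of 2071 (0.483%). In the stricter wild-type list, the sites on chromosomes 5 (3341026), 12 (14156226) and 3 (82930926) were also in 2 pieces. No share is given for other regions of equal width, so nothing particular to lone sites is read from this.

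The most isolated sites had a single region in both libraries. The lone region farthest from any other was 400 bp wide on chromosome 1 (27089301 to 27089700), with 1202 kb free on its left and 1461 kb on its right. K3R3 had 1 region of 275 bp (27089301 to 27089575) in the stretch, beginning at the same base. On chromosome 4, lone regions of 525 bp (38330751 to 38331275) and 200 bp (39300701 to 39300900) were each other's neighbours across 969 kb, and K3R3 had regions of 525 and 125 bp there. A region of 225 bp on chromosome 17 (62111651 to 62111875) had a K3R3 region of 275 bp, and one of 400 bp on chromosome 5 (55365351 to 55365750) had a K3R3 region of 425 bp. All 5 were also in both stricter lists. Of the 43 lone regions with the nearest neighbour at least 400 kb away, 42 were shared (97.7%, 87.9 to 99.6) and 39 had exactly 1 K3R3 region in the stretch. The exception, of 275 bp on chromosome 4 (27224251 to 27224525), had no region in either K3R3 list within 50 kb.

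The 5 stretches with most K3R3 regions all had a K3R3 region on the lone site, as did 93.3% of all lone regions. The count that ranks them includes the region over the site, so nothing is read from this. On chromosome 11, a lone region of 350 bp (52998001 to 52998350) had a K3R3 region of 375 bp over it and 8 others in the stretch. These were 25 to 875 bp wide, and the widest (52952576 to 52953450) lay 44.55 kb from the site. On chromosome 9, the region of 1100 bp at 122929901 to 122931000 had K3R3 regions numbering 8 in all, the 7 others all on its right side and up to 675 bp wide. The other 3 stretches, each with 7 K3R3 regions, were on chromosome 9 (98411276 to 98411475, 200 bp) and on chromosome 17 (67702301 to 67704475, 2175 bp, and 73266751 to 73268875, 2125 bp). Both sites on chromosome 17 had exactly the same start and end in K3R3. In the stricter K3R3 list the 5 stretches held 7, 6, 7, 4 and 8 regions.

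By chromosome, the number of lone regions ranged from 53 on chromosome 19 to 221 on chromosome 1. Per Mb up to the last region, chromosome 10 was richest with 1.33 and chromosome 11 poorest with 0.772. Chromosome 11 also had the densest wild-type list (61.1 regions per Mb), and chromosome 10 had 35.5 per Mb. Chromosomes 14 and 3, the sparsest at 26.4 and 25.8 regions per Mb, had 1.22 and 1.17 lone regions per Mb. As shares of regions of at least 200 bp, lone regions made up 6.31% and 6.15% on these chromosomes and 1.59% on chromosome 11. Over the 17 chromosomes the Spearman rho between lone regions per Mb and all regions per Mb was -0.44 (Pearson -0.50). The rule itself works toward such a relation, since dense chromosomes leave fewer empty stretches.

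**Figure D5:**
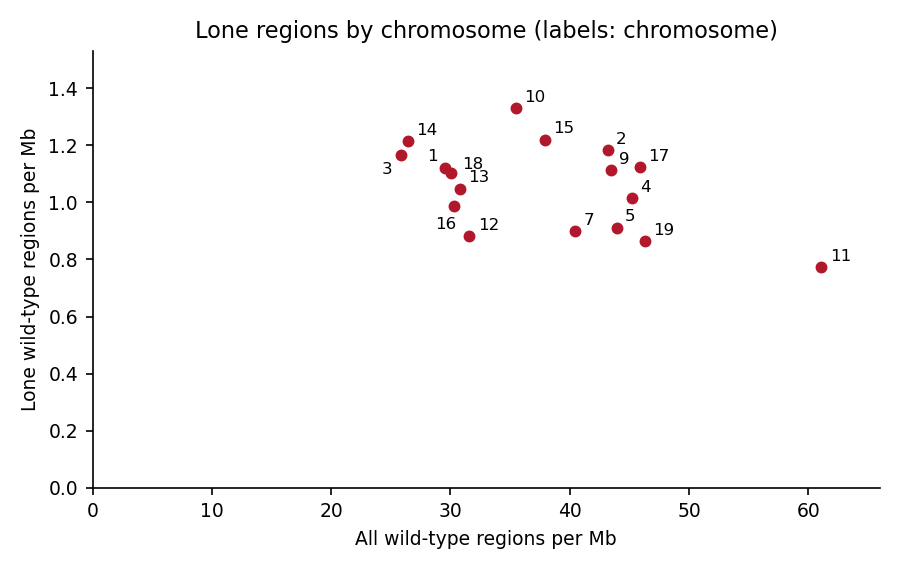
Lone wild-type regions per Mb (vertical axis) against all wild-type regions per Mb (horizontal axis) on the 17 autosomes, each point a chromosome with its number. Chromosome 11 lies lowest, with 0.772 lone regions per Mb at 61.1 regions per Mb, and chromosome 10 highest, with 1.33 at 35.5.

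The lone sites were shared with K3R3 on every chromosome, from 87.2% on chromosome 11 (82 of 94) to all 53 on chromosome 19 (intervals 79.0 to 92.5 and 93.2 to 100). A single K3R3 region in the stretch was least frequent on chromosome 17 (55 of 107, 51.4%, interval 42.1 to 60.7) and most frequent on chromosome 15 (86 of 126, 68.3%, 59.7 to 75.7). Stretches without K3R3 made up 8.03% on chromosome 7 (11 of 137), 7.89% on chromosome 14 (12 of 152) and 1.00% on chromosome 18 (1 of 100), and none were found on chromosome 19. The same shares over all wild-type regions of each chromosome were not computed. Whether these differences are particular to lone regions was therefore not tested. Median widths were between 300 bp (chromosome 19) and 400 bp (chromosomes 1 and 7).

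Lone regions were found in most 10 Mb windows of the 17 autosomes. Of 229 windows of 10 Mb with any wild-type region, 222 held at least 1 lone region, the median was 10 and the highest number 24. With this many lone regions most windows would hold some in many arrangements. No expected spread was computed, so whether lone regions gather was not tested. On chromosome 2 the window from 50 to 60 Mb held 24 lone regions among 166 wild-type regions, and 20 of the 24 were shared. A window on chromosome 5 (80 to 90 Mb), picked after its values were seen, also held 24, all shared, and K3R3 was single in 19 of these stretches. The richest window of chromosome 4 (20 to 30 Mb) had 21, that of chromosome 10 (100 to 110 Mb) 20, that of chromosome 1 (40 to 50 Mb) 18 and that of chromosome 3 (60 to 70 Mb) 17. In the window of chromosome 10 all 20 were shared and K3R3 was single in 17.

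Many lone regions stood next to another lone region in the list. For 1169 of the 2329 (50.2%, 48.2 to 52.2) the next wild-type region on at least 1 side was also lone. These formed 463 runs of 2 or more, and 157 runs with 557 regions had 3 or more. The rule works toward such runs, since any neighbour of a lone region already has 50 kb free on that side. The other 1160 need not border denser parts, because the 1280 isolated regions under 200 bp do not count as lone. The longest run had 8 lone regions over 1305 kb of chromosome 1 (176250351 to 177555775), with widths of 200 to 2000 bp. All 8 were shared, K3R3 had only 9 regions in the whole span, and the widest site (176431801 to 176433800) had 2000 bp for wild-type H2A.Z and 1950 bp for K3R3. A run of 7 on chromosome 17 (19543901 to 21252400) was also fully shared, with 13 K3R3 regions over 1708 kb.

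On chromosome 2 a run of 7 lone regions (55145651 to 56698325) had only 4 shared. The 3 without K3R3 were 200, 275 and 200 bp wide (55199901 to 55200100, 56463851 to 56464125, 56698126 to 56698325), all were in the stricter wild-type list, and neither K3R3 list had a region in their stretches. Between them stood a site of 2225 bp (55288101 to 55290325) that measured 2225 bp in K3R3 as well. Of the other runs of 6 or 7 among the 5 longest, that on chromosome 4 (23446101 to 24577425) had 6 of 7 shared and that on chromosome 17 (37998051 to 40026700) had 6 of 6.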

How the data were processed

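The data were 4 lists of enriched regions, 2 per library, which the authors deposited as positions in bp, that is chromosome, start and end, without height, score or p-value. Bowtie 0.12.3, bedtools and the build mm9 are named in the submitters' processing notes. Per the file headers, the lists have the thresholds 1e-09 (looser) and 1e-12 (stricter). What called the regions, with which filters and against which control, is not given in the sources used here. Depth is unknown, so list lengths were not adjusted.

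Lone regions and the comparisons were computed with Python 3.11.15, numpy 2.4.6, pandas 2.3.3 and scipy 1.17.1, and figures with matplotlib 3.10.9. Gaps are the bases between regions, sharing means an overlap of at least 1 bp, and coordinates are printed 1-based in mm9. The functions were tested on simulated data with planted lone regions and set against bedtools 2.31.1, which found the same 2329. No test was run, because each group has 1 library. Regions named are the 10 widest, the 5 most isolated, the 5 widest without K3R3 in the stretch, the 5 with most K3R3 regions there, and the richest 10 Mb window of each of the 5 chromosomes with most lone regions. The longest runs were described after their values were seen. The members and the comparisons were chosen with earlier results of these data known.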

Additional observations from a re-analysis of the deposited data

How the results depend on the processing

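Lone regions stayed mostly shared with K3R3 under every alternative run. No paired analysis was possible because there was only 1 library in each group. Depth, which affects how many narrow regions are found, is unknown, and for the values that moved the cause was not tested. With another isolation distance the stretch changes with it. There were 5241 lone regions with 25 kb free, 877 with 100 kb, 3609 with no minimum width, 1039 at 400 bp or more, and 3658 when only neighbours of at least 200 bp counted. Their median width was 325 bp with 100 kb free, 225 bp without a minimum and 700 bp at 400 bp or more. The share of lone regions shared with K3R3 was 83.4% without a minimum width, 96.6% at 400 bp or more, 87.5% for a reciprocal overlap of 50%, 92.0% with the stricter K3R3 list, 94.3% with both lists and 90.0% with lists of equal length. Set beside the other regions, the lone ones had 83.4% against 84.1% without a minimum width, where the pooled order turned with overlapping intervals. At 400 bp or more they had 96.6% against 92.5%.

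The share of stretches with exactly 1 K3R3 region was 62.5% in the stricter lists, 63.5% with 25 kb, 53.1% with 100 kb, 56.0% without a minimum width, 42.6% when only neighbours of at least 200 bp counted (no longer the majority), 64.6% with the stricter K3R3 list, 71.8% with K3R3 regions of at least 200 bp only, and 70.3% with equal lengths. Stretches without K3R3 made up 3.76% with 100 kb, 11.6% without a minimum width, 2.12% at 400 bp or more, 3.45% when only neighbours of at least 200 bp counted, 6.01% with the stricter K3R3 list, 3.61% with both, 11.3% with K3R3 regions of at least 200 bp only, and 8.50% with equal lengths. The median log2 width ratio was -0.039 without a minimum width. The share of other regions shared was 91.1% in the stricter lists, 84.1% without a minimum width, 92.5% at 400 bp or more, 81.9% for reciprocal overlap, 93.0% within 1000 bp, 91.0% with the stricter K3R3 list and 92.4% with both. Lone K3R3 regions were shared with the wild type at 84.8% in the stricter lists, 65.3% without a minimum width, 93.2% at 400 bp or more, 77.1% for reciprocal overlap, 80.0% with the stricter wild-type list and 84.1% with both.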

Other observations

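The share of lone stretches with exactly 1 K3R3 region varied between 10 Mb windows. Among the 156 windows with at least 8 lone regions, the median share of stretches with exactly 1 K3R3 region was 60.6%, and 3 windows were below 25%. The lowest was chromosome 3 from 30 to 40 Mb, where none of 14 lone stretches had a single K3R3 region, 11 had 2 to 4 and 3 had none. That window held 443 K3R3 and 302 wild-type regions, a ratio of 1.47, against 1.21 for the 17 autosomes. At the 11 shared sites the widths ran from equal ones, such as 200 bp in both libraries at 38615101 to 38615300, to 700 bp for wild-type H2A.Z against 425 bp for K3R3 at 36761676 to 36762375 and 250 bp against 350 bp at 31440501 to 31440750. In the stricter K3R3 list, 4 of these 11 stretches had a single region. The other windows below 25% were chromosome 3 from 120 to 130 Mb (2 of 11, ratio 1.34) and chromosome 1 from 60 to 70 Mb (4 of 17, ratio 1.21). The next windows stood at 25%. More than 1 K3R3 region lay in 9 of 11 stretches of chromosome 3 from 120 to 130 Mb, against 11 of 14 in the lowest window. By that count the lowest window did not stand apart. The windows were picked for these values, so they are given as a description.

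The stricter wild-type list showed some stretches as less empty than the looser list did. A single stricter wild-type region, on the site or elsewhere, lay in 2151 of the 2329 stretches (92.4%). Of the lone regions present in the stricter wild-type list, 112 (4.81% of all 2329) had further stricter wild-type regions away from the site. Lone regions absent from that list were left out of this count. Isolation in the looser list is therefore not complete at the stricter threshold for these 112.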
